A study of Mus musculus with 16 samples.

Results

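The genes described here are 38 lysosomal genes of the mouse, chosen by name from the 23284 gene symbols counted in lumbar spinal cord. They comprise 24 acid hydrolases (10 glycosidases, 5 sulfatases, 6 lipid hydrolases and 3 peptidases), 3 luminal cofactors, 8 membrane proteins and the 3 related transcription factors Tfeb, Tfe3 and Mitf. The rule names genes by function and uses no measured value, although it was set with earlier results of these data known. All 38 had a row in the count table and passed the filter on low counts. RNA was sequenced from 4 groups of 4 mice aged 150 days. The groups were Atg7 cKO mice carrying the SOD1G93A transgene (cKO_SOD1), Atg7 cWT mice carrying it (cWT_SOD1), Atg7 cKO mice without it (cKO) and Atg7 cWT mice without it (cWT). SOD1G93A is a human superoxide dismutase transgene that causes a motor neuron disease in mice, and Atg7 encodes an enzyme needed to build autophagosomes. The series title places the loss of autophagy in motor neurons, but the labels name neither the Cre driver of the cKO nor the alleles of the cWT.

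Lysosomes are acidic organelles in which hydrolases break down material delivered by autophagy, endocytosis and phagocytosis, and their membrane holds transporters, channels and heavily glycosylated coat proteins. Tfeb and its relatives are kept in the cytoplasm when the kinase complex mTORC1 is active at the lysosomal surface. When they enter the nucleus they bind short E-box sequences near the start sites of many lysosomal genes. Inherited loss of most of these hydrolases in humans causes lysosomal storage disease, often with damage to the nervous system. In the spinal cord microglia, the resident phagocytes, are rich in lysosomes, and CD68, the protein of Cd68, is a widely used marker of phagocytic microglia and macrophages.

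Library totals ran from 14989026 to 20892530 counts, and levels are given as CPM, the counts of a gene scaled to a common TMM-adjusted library total. Atg7 was counted at 28.3, 28.8, 28.4 and 26.4 CPM in the cKO cords, against 35.1, 29.7, 29.9 and 31.0 CPM in the cWT cords. These libraries did not overlap, but the difference (log2 fold change -0.17 ± 0.12 SE) did not pass the test across all genes (adjusted p = 0.9995, edgeR). Atg7 had 29.4, 20.4, 29.3 and 29.6 CPM in cKO_SOD1 cords, against 30.3, 23.1, 22.1 and 20.8 CPM in cWT_SOD1 cords. These groups overlapped, and the log2 fold change was 0.17 ± 0.12 (adjusted p = 0.22). Atg7 was also lower in cWT_SOD1 than in cWT cords, by a log2 fold change of -0.38 ± 0.12 (adjusted p = 0.00839, edgeR). The libraries of these groups overlapped, and 33.1% of all genes were called lower in that comparison. Whole cord counts Atg7 of all cells, so these levels do not check the genotype labels, and groups are called by their labels throughout. Mouse Sod1 did not pass the test in any of the 5 comparisons, and the human transgene was not analysed here. The labelled tissue held all 9 motor neuron markers and all 8 oligodendrocyte markers, while markers of dorsal root ganglion and skeletal muscle summed to at most 1.33 CPM in any library. In bulk tissue, fewer cells of a type and less RNA per cell cannot be told apart. The design text calls the 4 samples of a group biological replicates.

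Among the 36 members with a RefSeq promoter (GRCm38.p6), 9 held the E-box core CACGTG, the letters bound by Tfeb and its relatives, in the window from 250 bases before to 50 bases after a start site. The motif was read on both strands. That is 25% of these members, against 8.09% of all 27025 genes in the table, and 9 of 44 member windows (20.5%) against 7.15% of all 32851 windows. The same 9 held the longer TCACGTG on either strand, which contains the core and occurs in 3.77% of all windows. The 10-letter palindrome GTCACGTGAC occurred in 0.326% of all windows, and among the members only in Cln3. Shown here are 5 stretches, with every core in capitals and 15 flanking bases on each side, because they hold the palindrome (Cln3), the most cores (Lamp1), another pair of cores (Gla) or belong to members lower in cWT_SOD1 cords (Mcoln1 and Gaa). They were picked after the results were known.
Cln3, chr7:126583337-126583400, minus strand: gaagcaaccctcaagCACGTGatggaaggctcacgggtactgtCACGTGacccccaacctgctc
Lamp1, chr8:13159085-13159166, plus strand: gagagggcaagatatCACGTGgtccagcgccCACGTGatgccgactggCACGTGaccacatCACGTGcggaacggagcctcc
Gla, chrX:134601179-134601247, minus strand: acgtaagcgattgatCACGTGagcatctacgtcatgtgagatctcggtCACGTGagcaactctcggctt
Mcoln1, chr8:3500433-3500494, plus strand: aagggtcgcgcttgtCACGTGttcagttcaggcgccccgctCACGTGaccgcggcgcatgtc
Gaa, chr11:119267808-119267843, plus strand: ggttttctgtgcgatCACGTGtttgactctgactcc
The first bases of the 4 cores of Lamp1 lay at positions -61, -45, -28 and -15 relative to the start site, and those of Gla at -227 and -194. Arsa, Glb1, Lgmn and Sgsh held a single core each. Cln3 and Lgmn have a second start in the table whose window lacks these letters. A match of letters does not show that a factor bound there.

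The first comparison asks what the SOD1G93A transgene did to these genes in the Atg7 cWT genotype. All 38 members changed in cWT_SOD1 cords relative to cWT cords, 34 of them higher and 4 lower (edgeR quasi-likelihood test, Benjamini-Hochberg adjusted p under 0.05 over 15426 genes). Of all genes tested, 33.2% were called higher, 33.1% lower and 66.3% in either direction. The median log2 fold change was 0.79 over the members and 0.01 over all genes. Libraries of the groups did not overlap for 36 members, 32 higher and 4 lower, against 27.6% higher, 28.9% lower and 56.6% in either direction among all genes. The hydrolases and cofactors had 24 of 27 members higher and the membrane proteins 7 of 8, with 14 members over 2-fold. The share of all genes over 2-fold was not computed for any comparison. All 3 regulators were higher, by at most 1.27-fold.

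**Figure D1:**
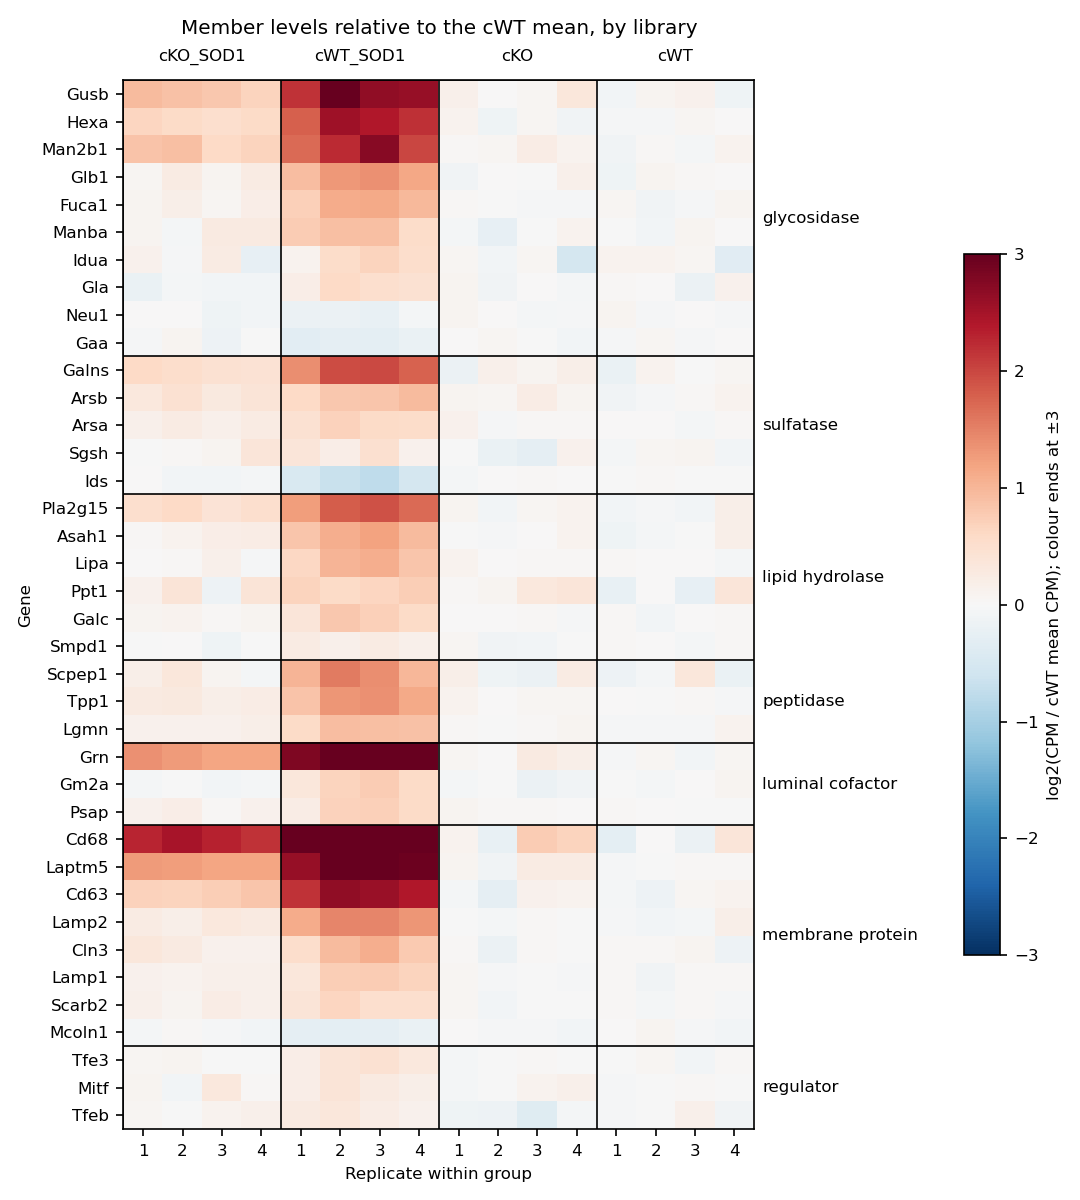
Level of each of the 38 members (rows, grouped by role) in each of the 16 libraries (columns), as the log2 ratio of CPM to the cWT mean, with colour ending at ±3. The cWT_SOD1 columns stand out for most rows, with replicate 1 the palest of them for many genes, and the cKO and cWT columns are close to 0.

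The 5 largest increases were in the membrane proteins Cd68, Laptm5 and Cd63, in progranulin and in the glycosidase Gusb. Cd68, a heavily glycosylated membrane protein, had 105, 214, 191 and 164 CPM in cWT_SOD1 cords, against 4.51, 5.60, 4.89 and 7.15 CPM in cWT cords. Every cWT_SOD1 library lay far above every cWT library, and the fold was 30.5 (log2 fold change 4.93 ± 0.23 SE, adjusted p = 1.81e-11, edgeR). Grn encodes progranulin, a secreted and lysosomal protein that is cut into granulins. It had 327, 596, 540 and 502 CPM in cWT_SOD1 cords, against 45.4, 48.5, 44.2 and 48.2 CPM in cWT cords. Here too replicate 1 was the lowest of the cWT_SOD1 libraries and still several times the highest cWT library, for a 10.5-fold difference (3.40 ± 0.14). Laptm5, a lysosomal transmembrane protein made mainly in hematopoietic cells, had 208, 344, 304 and 263 CPM in cWT_SOD1 cords, against 33.0, 33.5, 34.8 and 34.8 CPM in cWT cords. The cWT libraries of Laptm5 were within 2 CPM of each other, and the fold was 8.22 (3.04 ± 0.12). Cd63, a tetraspanin of late endosomes and lysosomes, had 132, 183, 175 and 153 CPM in cWT_SOD1 cords, against 28.2, 26.4, 30.5 and 31.6 CPM in cWT cords. Its libraries did not overlap and the fold was 5.51 (2.46 ± 0.10).

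Gusb, β-glucuronidase, a glycosidase that degrades glycosaminoglycans, led the hydrolases. It had 79.2, 139, 112 and 107 CPM in cWT_SOD1 cords, against 16.8, 18.6, 19.2 and 16.1 CPM in cWT cords. All cWT_SOD1 libraries were above all cWT libraries, and the fold was 6.20 (2.63 ± 0.13). Hexa, the α subunit of β-hexosaminidase, which trims gangliosides, followed with a mean of 246 ± 52.8 CPM in cWT_SOD1 cords against 51.3 ± 1.38 CPM in cWT cords (SD, n = 4 each), a fold of 4.80. Man2b1, the α-mannosidase of glycoprotein breakdown, rose 4.65-fold, Glb1, a β-galactosidase, 2.30-fold, and Fuca1, which removes fucose, 1.99-fold. Manba, the β-mannosidase, rose 1.73-fold, Idua, which acts on dermatan and heparan sulfate, 1.39-fold, and Gla, α-galactosidase, 1.36-fold. Libraries overlapped for Idua. Glb1, Idua, Sgsh and Scpep1 lie over another gene in the mm9 loci of the files (Tmppe, Slc26a1, Card14 and 4930405P13Rik), and no source used here says whether counting used strand, so that reads of these pairs may be mixed.

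Among the sulfatases, Galns, which acts on keratan sulfate, rose 3.47-fold. Arsb, which acts on dermatan sulfate, rose 1.74-fold, Arsa, which acts on the myelin lipid sulfatide, 1.49-fold and Sgsh, which acts on heparan sulfate, 1.23-fold. All 6 lipid hydrolases rose: Pla2g15, a lysosomal phospholipase, by 3.22-fold, Asah1, acid ceramidase, by 2.04-fold and Lipa, the lysosomal acid lipase, by 1.88-fold. Ppt1, which removes fatty acids from proteins, rose 1.58-fold, Galc, which degrades the myelin lipid galactosylceramide, 1.55-fold, and Smpd1, acid sphingomyelinase, 1.15-fold. Smpd1 had 129, 122, 129 and 121 CPM in cWT_SOD1 cords, against 111, 110, 104 and 111 CPM in cWT cords, so that even this smallest rise left no overlap. The 3 peptidases rose by 1.77-fold (Lgmn, an asparaginyl endopeptidase), 2.28-fold (Tpp1, a tripeptidyl peptidase) and 2.41-fold (Scpep1, a serine carboxypeptidase). Of the cofactors that present lipids to hydrolases, Gm2a rose 1.51-fold and Psap, the precursor of the saposins, 1.48-fold. In the membrane, Lamp2 rose 2.55-fold and Lamp1 1.56-fold, both coat proteins of the lysosome. Cln3, the gene of a juvenile neuronal ceroid lipofuscinosis, rose 1.8-fold, and Scarb2, the receptor that carries β-glucocerebrosidase to lysosomes, 1.43-fold.

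The members that fell were Ids, Gaa, Mcoln1 and Neu1. Ids, the sulfatase that starts the breakdown of dermatan and heparan sulfate, had 399, 344, 321 and 380 CPM in cWT_SOD1 cords, against 538, 563, 540 and 546 CPM in cWT cords. The groups were well apart and the log2 fold change was -0.60 ± 0.06 (adjusted p = 8.62e-08, edgeR). Gaa, the acid α-glucosidase of glycogen breakdown, had 361, 374, 364 and 387 CPM in cWT_SOD1 cords, against 434, 464, 439 and 451 CPM in cWT cords. Its libraries did not overlap (-0.27 ± 0.05). Mcoln1, the calcium channel of the lysosomal membrane, had 49.5, 49.3, 49.9 and 52.6 CPM in cWT_SOD1 cords, against 60.9, 63.9, 58.2 and 57.2 CPM in cWT cords. Neu1, a sialidase, had 50.9, 51.3, 50.1 and 55.2 CPM in cWT_SOD1 cords, against 61.0, 56.2, 58.0 and 56.7 CPM in cWT cords. Neither overlapped, although the decreases were small (-0.26 ± 0.05 for Mcoln1 and -0.16 ± 0.05 for Neu1).

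Tfe3 had 43.8, 49.7, 52.5 and 47.2 CPM in cWT_SOD1 cords, against 37.6, 39.7, 35.7 and 39.2 CPM in cWT cords. Its libraries did not overlap and it rose by 0.34 ± 0.06 on the log2 scale (adjusted p = 3.1e-05, edgeR). Mitf had 21.8, 24.6, 22.8 and 21.2 CPM in cWT_SOD1 cords, against 18.5, 18.8, 19.2 and 18.8 CPM in cWT cords, again without overlap (0.26 ± 0.08, adjusted p = 0.00696). Tfeb had 22.5, 23.6, 21.8 and 20.2 CPM in cWT_SOD1 cords, against 18.1, 18.4, 20.7 and 17.2 CPM in cWT cords. The highest cWT library of Tfeb was above the lowest cWT_SOD1 library (0.24 ± 0.08, adjusted p = 0.011). These are transcript levels, and where the proteins were in the cell was not measured. Of the 9 members with the E-box core, 7 rose and 2 fell in this comparison, and of the 27 without it 25 rose and 2 fell. The median log2 fold changes were 0.58 and 0.80, and 33.2% of all genes were called higher and 33.1% lower.

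**Figure D2:**
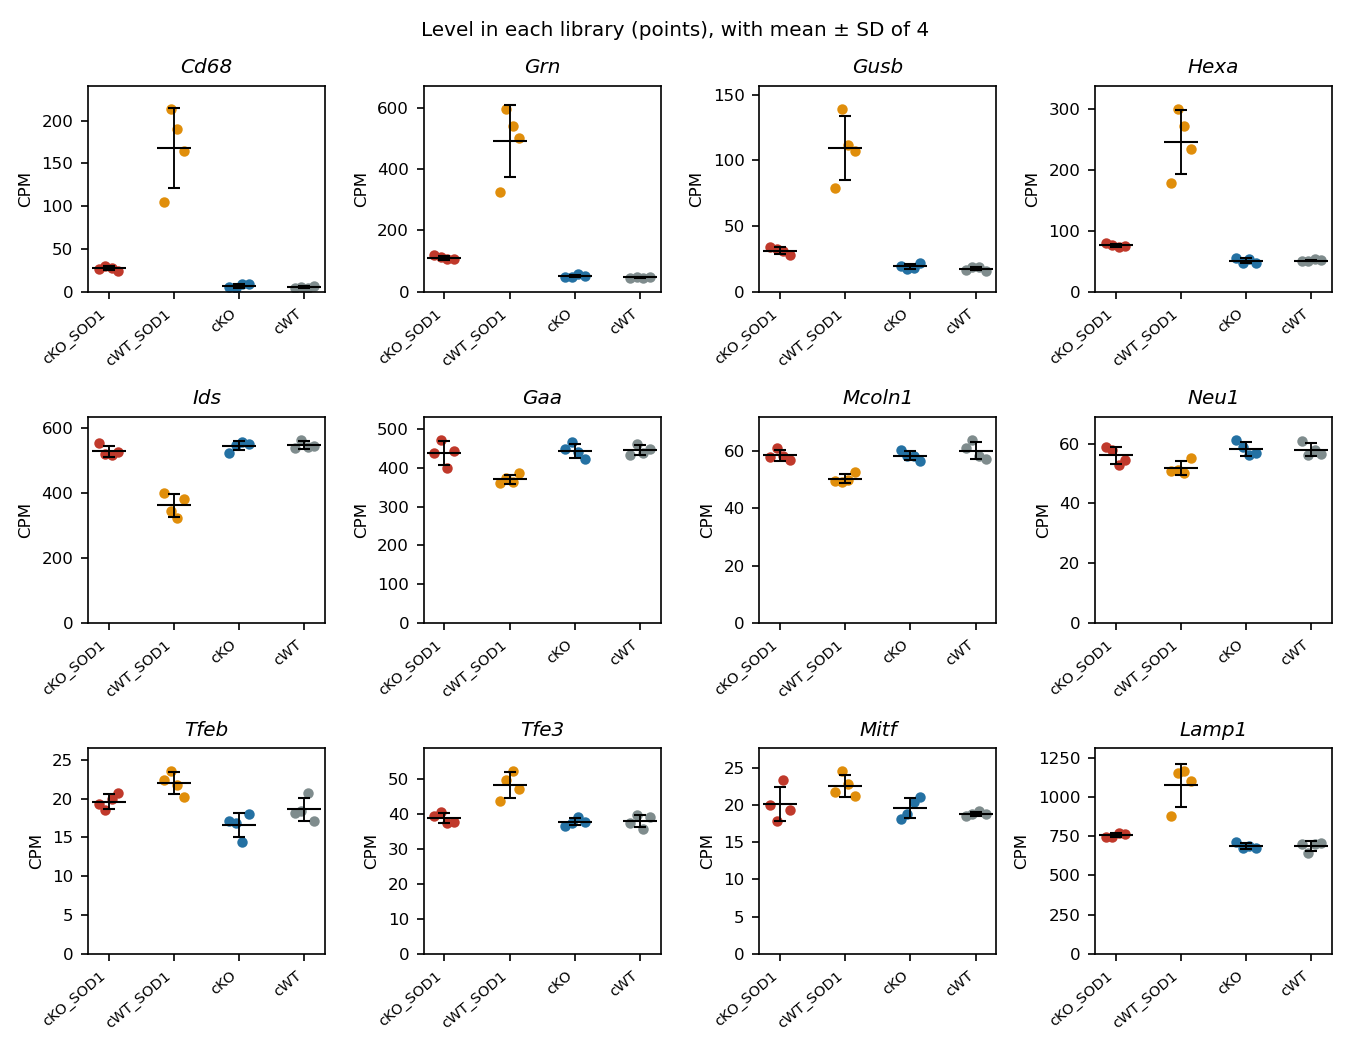
CPM of 12 members in each library (points, 4 per group), with the mean and SD as bars, from 0. Cd68, Grn, Gusb, Hexa and Lamp1 are highest in cWT_SOD1 cords, Ids, Gaa, Mcoln1 and Neu1 are lowest there, and the means of the regulators Tfeb, Tfe3 and Mitf are highest there by a small margin.

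Markers of several cell types also differed between the groups, and not all in the pattern of the members. The 15 microglia and macrophage markers, none of them a member and none at 0, summed to 795 to 841 CPM in cKO_SOD1 cords, 2261 to 4092 CPM in cWT_SOD1 cords, 350 to 487 CPM in cKO cords and 368 to 419 CPM in cWT cords. All 15 rose in cWT_SOD1 against cWT cords, where 33.2% of all genes were called higher. In cKO_SOD1 against cKO cords 13 rose, where 4.80% of all genes did. The 7 astrocyte markers summed to 11677 to 12249 CPM in cKO_SOD1 cords and 20072 to 24850 CPM in cWT_SOD1 cords. They summed to 7660 to 8467 CPM in cKO cords and 7893 to 8301 CPM in cWT cords. Of the 7, 6 were called higher in cWT_SOD1 against cWT cords and 2 in cKO_SOD1 against cKO cords. Their log2 fold changes were uneven, from 0.00 to 3.17 in the first comparison and from 0.02 to 1.51 in the second. The 7 general neuron markers were lowest in cWT_SOD1 cords, at 2778 to 4503 CPM, against 6215 to 6852 CPM in cKO_SOD1 cords, 8987 to 9429 CPM in cKO cords and 9536 to 10096 CPM in cWT cords. The 9 motor neuron markers summed to 167 to 219 CPM in cKO_SOD1 cords, 137 to 188 CPM in cWT_SOD1 cords, 423 to 486 CPM in cKO cords and 478 to 620 CPM in cWT cords. All 9 fell with the transgene in both genotypes. Of all genes, 33.1% were called lower with it in the cWT genotype and 2.48% in the cKO genotype. In cKO against cWT cords 2 of the 9 were lower, out of 3 genes called lower in all (0.0194%). The motor neuron sums of the groups with the transgene overlapped. The 8 oligodendrocyte markers summed to 25137 to 29131 CPM in cKO_SOD1 cords and 20905 to 24978 CPM in cWT_SOD1 cords. They summed to 26082 to 28552 CPM in cKO cords and 25394 to 29016 CPM in cWT cords. Of the 8, 1 was called higher and 5 lower in cWT_SOD1 against cWT cords. In cKO_SOD1 against cKO cords 1 was higher and none lower. The 5 endothelial markers lay between 131 and 176 CPM in all libraries, with overlap between all groups. The 6 T and B cell markers had low sums, but these were highest in cWT_SOD1 cords, at 2.15 to 4.76 CPM. They reached at most 1.24 CPM in cKO_SOD1 cords, 0.780 CPM in cKO cords and 1.05 CPM in cWT cords. The 3 neutrophil markers summed to at most 8.27 CPM in any library. Within the cWT_SOD1 group, replicate 1 had the lowest microglia sum (2261 CPM) and the highest neuron sum (4503 CPM). It was also the lowest of the 4 libraries in 27 of the 34 members that rose. The matching share of all genes that rose was not computed, so this count is not particular to the members. The part of cell makeup in the results on the 38 genes was not tested.

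The second comparison asks what the transgene did in the Atg7 cKO genotype. In cKO_SOD1 cords 11 members rose relative to cKO cords and none fell, where 4.80% of all genes were called higher, 2.48% lower and 7.28% in either direction. The median log2 fold change was 0.15 over the members and 0.00 over all genes. Libraries did not overlap for 20 members, all higher, against 9.91% higher, 11.0% lower and 20.9% in either direction among all genes. The 11 were Cd68, Laptm5, Cd63 and Lamp2 of the membrane, Grn, the glycosidases Gusb, Hexa and Man2b1, the sulfatases Galns and Arsb, and the phospholipase Pla2g15. Of these, 10 were among the 11 members with the largest log2 fold changes in cWT_SOD1 against cWT cords. That comparison contrasts other libraries, but all 16 libraries share the fit behind the calls, and 15 members were called here without cWT_SOD1 replicate 1. The other, Arsb, ranked 19.

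Cd68 had 27.1, 30.6, 27.5 and 24.7 CPM in cKO_SOD1 cords, against 5.94, 4.77, 9.42 and 8.73 CPM in cKO cords. The groups were well apart, with a 3.80-fold rise (log2 fold change 1.93 ± 0.22, adjusted p = 3.15e-05, edgeR). Grn had 120, 113, 106 and 106 CPM in cKO_SOD1 cords, against 48.7, 47.2, 56.5 and 52.7 CPM in cKO cords, a 2.17-fold rise without overlap. Laptm5 had 82.3, 80.8, 77.8 and 76.8 CPM in cKO_SOD1 cords, against 36.2, 31.6, 40.3 and 40.4 CPM in cKO cords, a rise of 2.14-fold. These 3 genes were the ones over 2-fold. Cd63 had 46.7, 46.1, 48.4 and 51.9 CPM in cKO_SOD1 cords, against 28.1, 24.1, 31.9 and 31.2 CPM in cKO cords (1.67-fold). Gusb had 34.4, 32.3, 31.1 and 27.8 CPM in cKO_SOD1 cords, against 19.5, 17.7, 18.3 and 22.2 CPM in cKO cords (1.61-fold). For both, the lowest cKO_SOD1 library was above the highest cKO library.

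The smaller rises were also free of overlap. Hexa had 80.1, 76.2, 73.0 and 76.0 CPM in cKO_SOD1 cords, against 55.1, 46.8, 53.8 and 47.6 CPM in cKO cords (1.5-fold), and Man2b1 rose 1.57-fold. Pla2g15 had 22.1, 23.5, 20.8 and 22.2 CPM in cKO_SOD1 cords, against 16.3, 14.7, 16.1 and 16.7 CPM in cKO cords (1.39-fold, adjusted p = 0.0129, edgeR). Galns had 10.8, 10.4, 9.88 and 9.70 CPM in cKO_SOD1 cords, against 6.32, 7.96, 7.54 and 8.09 CPM in cKO cords (1.36-fold, adjusted p = 0.0318). Lamp2 had 210, 200, 221 and 211 CPM in cKO_SOD1 cords, against 175, 169, 181 and 175 CPM in cKO cords (1.20-fold, adjusted p = 0.0324). Arsb had 134, 147, 130 and 141 CPM in cKO_SOD1 cords, against 114, 111, 124 and 113 CPM in cKO cords (1.19-fold, adjusted p = 0.0263). The calls of Lamp2, Galns, Arsb and Pla2g15 depended on single libraries: 7 members were called without cKO replicate 2, when these 4 missed the threshold. With only the 8 libraries of the 2 groups fitted, 19 members were called. Calls over all genes moved as well, from 1123 to 685 without cKO replicate 2 and to 2480 with those 8 libraries.

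The 27 members that missed the threshold had log2 fold changes from -0.09 to 0.24, with 95% intervals that reached from -0.27 to 0.46. They included the peptidases Tpp1, Lgmn and Scpep1, the lipid hydrolases Asah1, Galc, Lipa, Ppt1 and Smpd1, and Lamp1. Libraries were still higher without overlap for Tpp1, Lgmn, Galc, Lamp1, Fuca1, Cln3, Scarb2, Arsa and Tfeb, where 9.91% of all genes were. Arsa (0.16 ± 0.05, adjusted p = 0.0685, edgeR) and Scarb2 (0.16 ± 0.05, adjusted p = 0.0756, edgeR) were near the threshold. The 4 genes that fell in cWT_SOD1 cords were among them: Ids had a log2 fold change of -0.04 ± 0.06 here and Mcoln1 of 0.00 ± 0.05. Tfeb had 19.3, 18.5, 19.9 and 20.7 CPM in cKO_SOD1 cords, against 17.1, 16.8, 14.4 and 18 CPM in cKO cords. Its libraries did not overlap, and its log2 fold change of 0.24 ± 0.08 had an adjusted p of 0.0741 (edgeR), which fell under 0.05 in 4 alternative fits. Tfe3 had 39.5, 40.6, 37.5 and 37.8 CPM in cKO_SOD1 cords, against 36.8, 37.6, 39.2 and 37.8 CPM in cKO cords, and the groups overlapped (0.04 ± 0.06). Mitf had 20, 17.9, 23.3 and 19.4 CPM in cKO_SOD1 cords, against 18.2, 18.8, 20.3 and 21.1 CPM in cKO cords, also with overlap (0.04 ± 0.08). None of the 9 members with the E-box core was called in this comparison, and 10 of the 27 without it were. The median log2 fold changes were close, 0.14 with the core and 0.16 without it, and 4.80% of all genes were called higher. Whether the core bears on these calls was not tested.

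**Figure D3:**
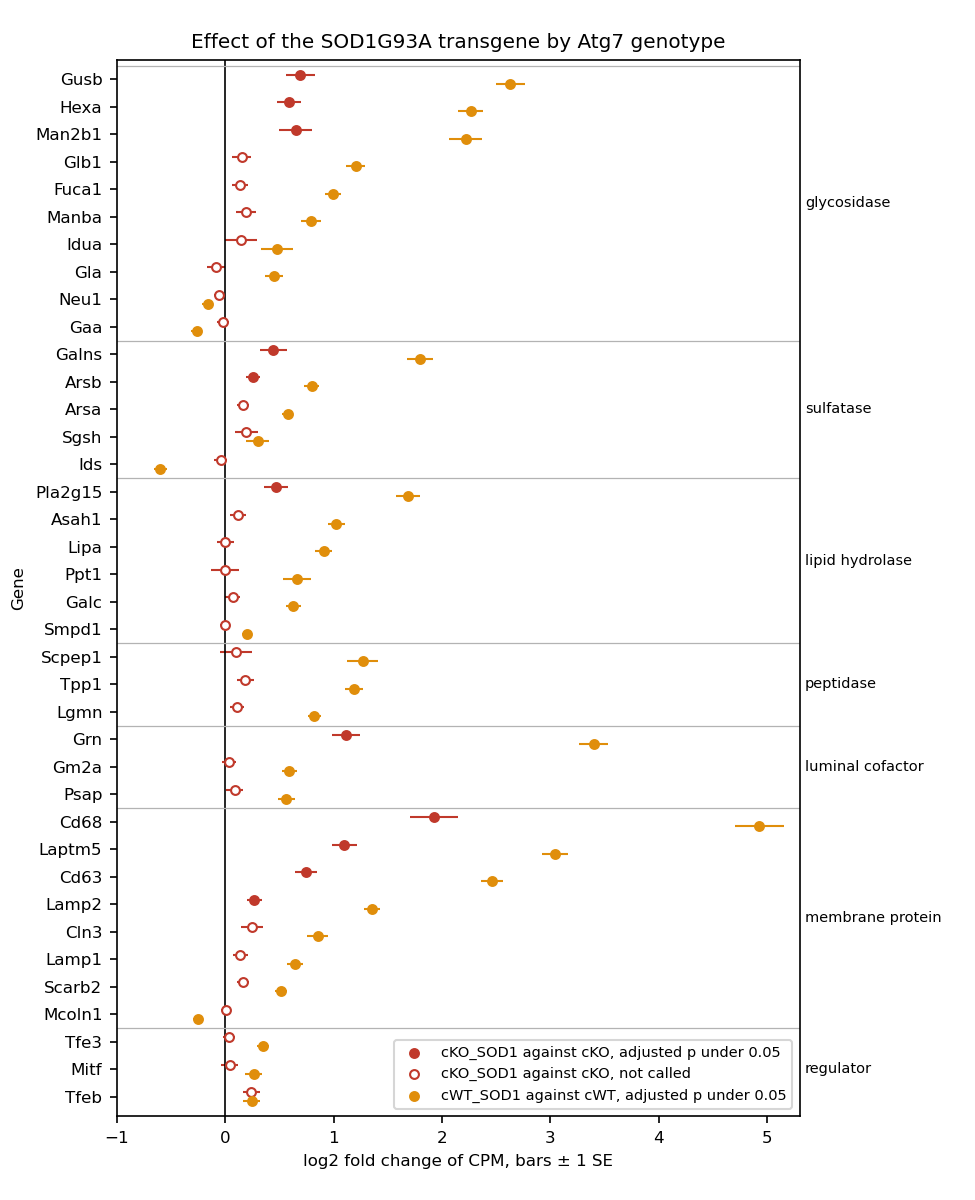
Log2 fold change of CPM (points, bars ± 1 SE) of each member for cKO_SOD1 against cKO cords and for cWT_SOD1 against cWT cords, with filled points where the adjusted p was under 0.05. Cd68, Grn and Laptm5 lead both series, at 1.93, 1.12 and 1.10 in the cKO background and 4.93, 3.40 and 3.04 in the cWT background.

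Whether the transgene effect differed between the Atg7 genotypes was tested as an interaction, the log2 fold change in cKO cords minus that in cWT cords. It was called for 33 members, negative in 30 and positive in 3, where 21.8% of all genes were called negative, 23.2% positive and 45.0% in either direction. The median interaction was -0.60 over the members and 0.00 over all genes. It was most negative for Cd68 (-3.0 ± 0.32 SE), Grn (-2.28 ± 0.18), Laptm5 (-1.94 ± 0.16), Gusb (-1.94 ± 0.19) and Cd63 (-1.72 ± 0.14). The 3 positive ones were Ids (0.55 ± 0.08), Mcoln1 (0.26 ± 0.06) and Gaa (0.25 ± 0.07). All 6 lipid hydrolases, all 3 peptidases and all 3 cofactors had a negative interaction. The 5 members without a call were Idua, Sgsh, Neu1, Mitf and Tfeb, but Mitf was called without cKO_SOD1 replicate 3 (-0.31, adjusted p = 0.0174, edgeR). Tfe3 had an interaction of -0.31 ± 0.08 (adjusted p = 0.00419, edgeR) and Tfeb of 0.00 ± 0.11, with a 95% interval from -0.24 to 0.23.

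The third comparison sets the 2 groups with the transgene against each other and so shares its libraries with the comparisons above. In cKO_SOD1 cords 34 members differed from cWT_SOD1 cords, 31 lower and 3 higher, where 29.1% of all genes were called lower, 29.1% higher and 58.2% in either direction. The median log2 fold change was -0.64 over the members and -0.01 over all genes, and 12 members were lower by more than 2-fold. Libraries did not overlap for 33 members, 30 lower and 3 higher, against 24.1% lower, 25.0% higher and 49.1% in either direction among all genes. The largest differences were in Cd68, 6.14-fold lower in cKO_SOD1 cords, Grn (4.42-fold lower), Laptm5 (3.52-fold lower), Gusb (3.49-fold lower) and Cd63 (3.33-fold lower). Every cKO_SOD1 library of these 5 genes, listed above, was below every cWT_SOD1 library. The cKO_SOD1 libraries were also closer together, with 27.5 ± 2.41 CPM for Cd68 against 169 ± 46.8 CPM in cWT_SOD1 cords (SD, n = 4 each).

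Hexa was 3.23-fold lower in cKO_SOD1 cords, Man2b1 2.75-fold, Galns 2.45-fold, Pla2g15 2.27-fold and Lamp2 2.13-fold lower. Psap, with a mean of 1813 ± 78.7 CPM in cKO_SOD1 cords and 2467 ± 361 CPM in cWT_SOD1 cords (SD, n = 4 each), was 1.36-fold lower. The 3 higher members were Ids, Gaa and Mcoln1. Ids had 553, 519, 516 and 527 CPM in cKO_SOD1 cords, with no overlap with the 399, 344, 321 and 380 CPM of cWT_SOD1 cords (log2 fold change 0.55 ± 0.06, adjusted p = 5.21e-07, edgeR). Gaa had 439, 473, 399 and 443 CPM in cKO_SOD1 cords, each above the cWT_SOD1 libraries given earlier (0.24 ± 0.05). Mcoln1 had 57.9, 61.2, 58.3 and 56.7 CPM in cKO_SOD1 cords, also each above them (0.22 ± 0.05). The 4 members that did not pass were Neu1, Sgsh, Mitf and Tfeb. Tfeb had a log2 fold change of -0.17 ± 0.08 (adjusted p = 0.0746) and Mitf of -0.16 ± 0.08 (adjusted p = 0.0798), while Tfe3 was lower in cKO_SOD1 cords (log2 fold change -0.31 ± 0.06, adjusted p = 0.000106). Without cKO_SOD1 replicate 3 Mitf was called (-0.25, adjusted p = 0.00674), and without cWT_SOD1 replicate 4 Tfeb was called (-0.21, adjusted p = 0.0395). The microglia sums of these groups, 795 to 841 CPM in cKO_SOD1 cords and 2261 to 4092 CPM in cWT_SOD1 cords, did not overlap either.

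The fourth comparison sets the Atg7 genotypes against each other without the transgene. No member was called in cKO against cWT cords by edgeR, none had an unadjusted p under 0.05, and DESeq2 gave 0 on both counts. Of all genes, 0.00648% were called higher, 0.0194% lower and 0.0259% in either direction, and for no member were the libraries free of overlap, against 3.48% of all genes. The log2 fold changes of the 38 members ran from -0.16 to 0.39, 20 of them positive, with 95% intervals that reached from -0.41 to 0.93. The 5 members with the smallest p were Tfeb, Arsb, Ppt1, Cd68 and Gm2a. Tfeb had 17.1, 16.8, 14.4 and 18 CPM in cKO cords, against 18.1, 18.4, 20.7 and 17.2 CPM in cWT cords, with an overlap (-0.16 ± 0.08, unadjusted p = 0.0513). Arsb had a log2 fold change of 0.11 ± 0.07, Ppt1 of 0.21 ± 0.13, Cd68 of 0.39 ± 0.26 and Gm2a of -0.09 ± 0.07. Tfe3 (-0.01 ± 0.06) and Mitf (0.06 ± 0.08) were close to 0. For Lamp1, the interval ran from -0.15 to 0.15, and the interval of Cd68, the least counted of the 38 in these groups, from -0.16 to 0.93.

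Levels of different genes were compared by the authors' FPKM, which are scaled to transcript length. Psap was the most abundant of the 38 in every group, at 770 ± 25.2 FPKM in cKO_SOD1 cords, 1056 ± 141 in cWT_SOD1 cords, 710 ± 6.84 in cKO cords and 682 ± 5.94 in cWT cords (SD, n = 4 each). Lamp1 came next in every group, with 370 ± 9.74 FPKM in cKO_SOD1 cords, 528 ± 58.3 in cWT_SOD1 cords, 328 ± 5.34 in cKO cords and 328 ± 12.4 in cWT cords. Galns had the lowest level in cWT cords, 2.80 ± 0.293 FPKM. In cWT_SOD1 cords Mitf (4.87 ± 0.308 FPKM) and Sgsh (4.87 ± 0.455 FPKM) were lowest, with nearly the same mean. The median level of the 38 genes was 25.5 FPKM in cKO_SOD1 cords, 48.6 in cWT_SOD1 cords, 16.9 in cKO cords and 16 in cWT cords. The order of the genes moved most in cWT_SOD1 cords. By mean FPKM, Cd68 ranked 19 of 38 in cKO_SOD1 cords, 7 in cWT_SOD1 cords, 31 in cKO cords and 35 in cWT cords. Grn ranked 10 in cKO_SOD1 cords, 5 in cWT_SOD1 cords, 17 in cKO cords and 18 in cWT cords. Ids ranked 5 in the other groups and 15 in cWT_SOD1 cords, and Gaa 4 in the other groups and 12 in cWT_SOD1 cords.

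**Figure D4:**
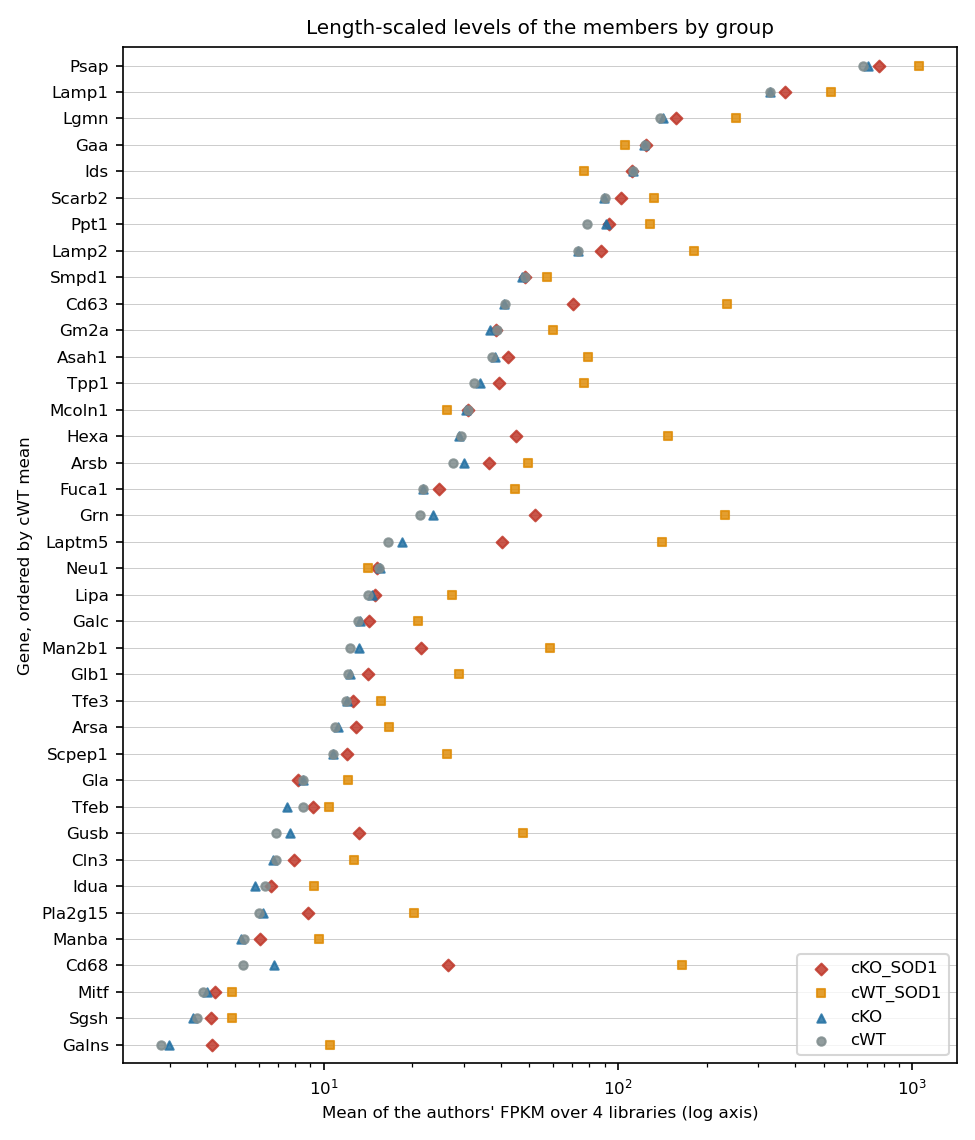
Mean of the authors' FPKM over the 4 libraries of each group (log axis) for each member, ordered by the cWT mean. Psap and Lamp1 are highest in every group, and the cWT_SOD1 squares lie furthest right for most genes and left of the others for Ids, Gaa, Mcoln1 and Neu1.

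A further 4 lists of lysosomal genes held none of the 38. Over all genes, 66.3% were called in cWT_SOD1 against cWT cords (33.2% higher and 33.1% lower). In cKO_SOD1 against cKO cords 7.28% were called (4.80% higher and 2.48% lower). Counted in either direction, membrane and transport genes (18 of 24) and delivery genes (8 of 12) are near the background in the first comparison. Of 18 other lysosomal hydrolases tested, 13 rose and 3 fell in cWT_SOD1 against cWT cords, and 4 rose and none fell in cKO_SOD1 against cKO cords (median log2 fold changes 1.0 and 0.11). Naglu, which acts on heparan sulfate, rose by 2.47 ± 0.12 on the log2 scale in cWT_SOD1 and by 0.89 ± 0.13 in cKO_SOD1 cords. Of 24 other membrane and transport genes, 12 rose and 6 fell in cWT_SOD1 cords, and 5 rose and 1 fell in cKO_SOD1 cords (medians 0.13 and 0.03). Slc11a1, a metal ion transporter of phagocyte lysosomes, had the smallest p of that list in cWT_SOD1 against cWT cords and rose by 4.20 ± 0.21 in cWT_SOD1 and 1.41 ± 0.21 in cKO_SOD1 cords.

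Of 12 genes that deliver or activate hydrolases, 5 rose and 3 fell in cWT_SOD1 cords and none was called in cKO_SOD1 cords (medians 0.04 and -0.03). Sumf1, which activates sulfatases, rose by 0.88 ± 0.07 in cWT_SOD1 cords, and Gga3, a sorting adaptor, had a log2 fold change of -0.46 ± 0.05. Of 20 genes of the mTORC1 and Tfeb control, 4 rose and 12 fell in cWT_SOD1 cords (median -0.17). In cKO_SOD1 cords none rose and 1 fell (median -0.06). Over all genes, 33.2% were called higher and 33.1% lower in the first of these comparisons, and 4.80% and 2.48% in the second. Fnip2, a partner of folliculin in nutrient signalling to mTORC1, rose by 1.40 ± 0.10 in cWT_SOD1 cords. Ppp3ca, a catalytic subunit of calcineurin, the phosphatase that dephosphorylates Tfeb, had a log2 fold change of -0.63 ± 0.05 in cWT_SOD1 cords and of -0.16 ± 0.05 in cKO_SOD1 cords. The second of these was at the threshold (adjusted p = 0.049, edgeR) and was lost in most alternative fits. Between the 2 groups with the transgene, 13 of the 18 other hydrolases were lower in cKO_SOD1 cords and 2 higher. Of the 20 control genes, 4 were lower and 9 higher. Over all genes, 29.1% were called lower, 29.1% higher and 58.2% in either direction. The 13 control genes called are thus near the background when both directions are counted together, but more of them were higher than lower.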

How the data were processed

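Per the labels' protocols, RNA of lumbar spinal cord was prepared with Trizol and columns, and TruSeq libraries were built from its poly-A fraction. The authors deposited raw counts for 23284 gene symbols and FPKM values, which are identical in their joint table and in the table of each library. The submitters' processing notes name TopHat2 2.0.4, Cufflinks 2.0.2, bcl2fastq 1.8.4 and the mm9 build and assign no role to any. What counted the reads, and with or without strand, is not given in the sources used here.

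The deposited counts entered edgeR 4.0.16 under R 4.3.3 (quasi-likelihood F-test, TMM, the filterByExpr rule, which left 15426 genes, and 16 libraries in 1 fit with a coefficient per group). Benjamini-Hochberg adjustment ran over every gene tested with a threshold of 0.05, and each SE is the absolute log2 fold change over the root of F. Intervals cover 95%. The code was also run on simulated counts with few changed genes and the same spread in every group. These data differ in both respects, so that run does not measure error rates here. Alternatives used DESeq2 1.42.0, limma 3.58.1 on voom weights or on log2(FPKM + 0.1) and log2(FPKM + 1), other scalings and filters, the libraries of the comparison alone, a replicate block, a sex term (2 females and 2 males per group, read from Xist and Y-linked counts) and each library left out. The groups' libraries were not duplicates, with a mean chi-square per gene between libraries of a group from 2.79 to 38.9.

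Members, gene lists and tests were chosen with earlier results of these data known. Any member called could be named, the regulators always, and where fewer than 5 were called the 5 with the smallest p. Values in every library are given for up to 5 called members at each end of a comparison and for the regulators, and each further list is represented by up to 2 genes with the smallest p. Of 144 entries in the further and marker lists, 143 matched a row, 4 of them by an older symbol. Promoters are RefSeq windows of GRCm38.p6, matched by symbol for 36 of 38 members (not Asah1 and Galns), and no coordinate of that build was set against mm9.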

Additional observations from a re-analysis of the deposited data

Results flagged for a closer look

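The transgene effect differed between the Atg7 genotypes in 33 members by the interaction test (edgeR, adjusted p under 0.05), where 45.0% of all genes did. All values are log2 fold changes in the cKO background minus those in the cWT background. Among the glycosidases the interaction was -1.94 for Gusb, -1.68 for Hexa, -1.57 for Man2b1, -1.05 for Glb1, -0.85 for Fuca1, -0.60 for Manba, -0.54 for Gla and 0.25 for Gaa. Among the sulfatases it was -1.35 for Galns, -0.54 for Arsb, -0.41 for Arsa and 0.55 for Ids. Among the lipid hydrolases it was -1.22 for Pla2g15, -0.91 for Lipa, -0.91 for Asah1, -0.66 for Ppt1, -0.56 for Galc and -0.21 for Smpd1. The peptidases had -1.17 (Scpep1), -1.0 (Tpp1) and -0.71 (Lgmn), and the cofactors -2.28 (Grn), -0.56 (Gm2a) and -0.48 (Psap). The membrane proteins had -3.0 (Cd68), -1.94 (Laptm5), -1.72 (Cd63), -1.08 (Lamp2), -0.61 (Cln3), -0.51 (Lamp1), -0.35 (Scarb2) and 0.26 (Mcoln1). Tfe3, with -0.31, was the regulator among them.

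In 8 of 152 sets of 4 libraries, 1 library stood apart from the other 3 by Dixon's test, and chance alone gives about 1 in 20. In cKO_SOD1 cords it was Galc in replicate 3 (48.7 CPM, the others 50.5 to 50.7), and in cWT_SOD1 cords Lgmn in replicate 1 (356 CPM, the others 439 to 452). In cKO cords it was Cln3 in replicate 2 (14.5 CPM, the others 16.4 to 16.7). In cWT cords it was Idua in replicate 4 (18.1 CPM, the others 24 to 24.8), Smpd1 in replicate 3 (104 CPM, the others 110 to 111), Lgmn in replicate 4 (255 CPM, the others 233 to 234), Lamp1 in replicate 2 (642 CPM, the others 699 to 704) and Lamp2 in replicate 4 (198 CPM, the others 166 to 171).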

How the results depend on the processing

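Of 3475 recomputed values of the members named, 3427 kept their direction and their side of the threshold, 23 lost a call, 7 gained one and 18 turned round. All that turned round were uncalled values near 0. Mitf in cKO_SOD1 against cKO cords was -0.0357 without cKO_SOD1 replicate 3 (up to 0.0953 without replicate 2), Tfe3 in cKO against cWT cords 0.00113 and 0.00102 under the FPKM fits and -0.0364 to 0.0141 over left-out libraries, and the interaction of Tfeb 0.0102 without the filter and -0.0603 to 0.0415 over left-out libraries. Calls were lost in cKO_SOD1 against cKO cords for Lamp2, Galns, Arsb and Pla2g15 (adjusted p up to 0.102, 0.112, 0.0914 and 0.0537, edgeR), in cKO_SOD1 against cWT_SOD1 cords for Idua (0.0554) and in cWT_SOD1 against cWT cords for Sgsh (0.072, without cWT_SOD1 replicate 3). Calls were gained for Tfeb in cKO_SOD1 against cKO cords in 4 alternatives and in cKO_SOD1 against cWT_SOD1 cords in 1, and for Mitf, without cKO_SOD1 replicate 3, in the second of these and in the interaction. Members called numbered 37 to 38 in cWT_SOD1 against cWT, 7 to 15 in cKO_SOD1 against cKO, 33 to 36 in cKO_SOD1 against cWT_SOD1, 0 in cKO against cWT and 33 to 34 for the interaction over left-out libraries. With the 8 libraries of the comparison alone, 19 members were called in cKO_SOD1 against cKO. Over all genes, that comparison gave 1123 calls (740 higher and 383 lower), 2480 with its 8 libraries (1235 higher and 1245 lower), 2264 with limma-voom (1217 and 1047) and 685 (without cKO replicate 2) to 1643 (without cWT_SOD1 replicate 1), and the FPKM fits gave 930 higher and 207 lower, 794 and 208, and 754 and 176. Calls over all genes in cKO against cWT were 4, 17 with DESeq2, 9 with 8 libraries, 10 with limma-voom and 2 to 9 over left-out libraries. Of 24 same-numbered pairs of libraries, 11 had r over 0.1 (from -0.253 to 0.312). Those 11 were all of the same sex, and every same-numbered pair of opposite sex had a negative r. These correlations therefore cannot tell whether replicate numbers pair the samples. A replicate block gave 38, 11, 34, 0 and 33 members called, the same counts. The cause of these changes was not tested. Intervals and tests rest on 4 animals a group and on an estimate of the spread that all 16 libraries share. Libraries of cWT_SOD1 cords differed most among themselves (mean chi-square per gene up to 38.9, against at most 11.1 in the other groups). They enter that estimate also in comparisons without them, where the intervals do not measure the spread of the 2 groups alone.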
